A study of Mus musculus with 32 samples.

Results

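Heart and kidney, whose muscle and tubule cells come largely from mesoderm, were compared with brain, which comes from ectoderm, and liver, whose hepatocytes come from endoderm. The comparison used the 8 columns of the deposited gene table of methylated DNA immunoprecipitation sequencing (MeDIP-seq): 4 columns of heart and kidney against 4 columns of brain and liver, chosen by organ name alone. The 8 columns stand for 16 of the 32 samples of the series, namely 2 samples titled 5mC for each organ and preservation. Of 27179 genes in the table, the 25982 with a signal of at least 1 CPM (reads on the gene for each 1000000 reads of the column's scaling size) in at least 2 of the 8 columns were tested, and 1197 were left out. The organs were taken from mice and were either flash frozen or fixed in 10% formalin and embedded in paraffin (FFPE), so that each side held 2 organs and each organ 1 frozen and 1 FFPE column. No source used here gives the strain, genotype, age or sex, and nothing says whether the samples of a group came from separate animals.

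Gastrulation divides the early embryo into ectoderm, mesoderm and endoderm, and DNA methylation is rewritten as cells commit to one of them. 5-methylcytosine (5mC), found in mammals mainly at CpG dinucleotides, is usually sparse on active CpG-rich promoters, while methylation within gene bodies is common and often goes with transcription. MeDIP enriches single-stranded DNA fragments with an antibody to 5mC, so that a higher read count on a gene means more methylated fragments there, without showing at which CpG. An adult organ is also a mixture: heart, kidney, brain and liver all hold mesodermal endothelium, fibroblasts and blood cells.

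The columns held 2164158 to 3699218 reads on genes, and a tested gene had a median of 39 to 68 reads per column. Values are log2 CPM, and every one stepped back to a whole number of reads within a tolerance of 1e-04, so no input signal had been subtracted from them. Between 880 and 2999 genes had 0 reads in a column, the most in frozen kidney. That column also had the widest spread of log2 CPM over tested genes, an SD of 2.67 against 1.75 in frozen brain. In correlation over tested genes, brain, heart and liver columns each lay nearest to the other column of the same organ, whereas frozen kidney lay nearest to frozen liver (r = 0.871) and FFPE kidney nearest to FFPE heart (r = 0.915). A column name gives organ and preservation but neither antibody nor replicate number, so each value is 1 number per organ and preservation. The part of the gene over which reads were counted, and the handling of strand, were not given.

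Few genes separated the organs by germ layer. In limma with organ and preservation as terms, 60 genes had higher 5mC signal in heart and kidney (0.231% of those tested) and 63 had lower signal (0.242%) at a Benjamini-Hochberg adjusted p under 0.05. The differences of the higher genes ran from 0.59 to 5.69 log2 units with a median of 1.13, and those of the lower genes had a median size of 0.95. Without adjustment, 3673 genes (14.1%) had a p under 0.05. The same fit called many more genes between single organs: 7405 (28.5%) between brain and liver, 4171 (16.1%) between kidney and brain, 3133 (12.1%) between heart and liver, 643 (2.47%) between heart and kidney, 493 (1.9%) between kidney and liver, and 445 (1.71%) between heart and brain.

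The split of the variation also placed brain against liver first. Of the sum of squares of log2 CPM over all tested genes, the contrast of heart and kidney with brain and liver took 12.5%, the difference between heart and kidney 15.5%, and that between brain and liver 29.8%. Preservation took 14.9%, and the residual held 9.08% for each of its 3 degrees of freedom. Among the more strongly covered genes, those above the median in mean signal, the brain and liver difference took 43.7% and the germ-layer contrast 12.6%.

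**Figure D1:**
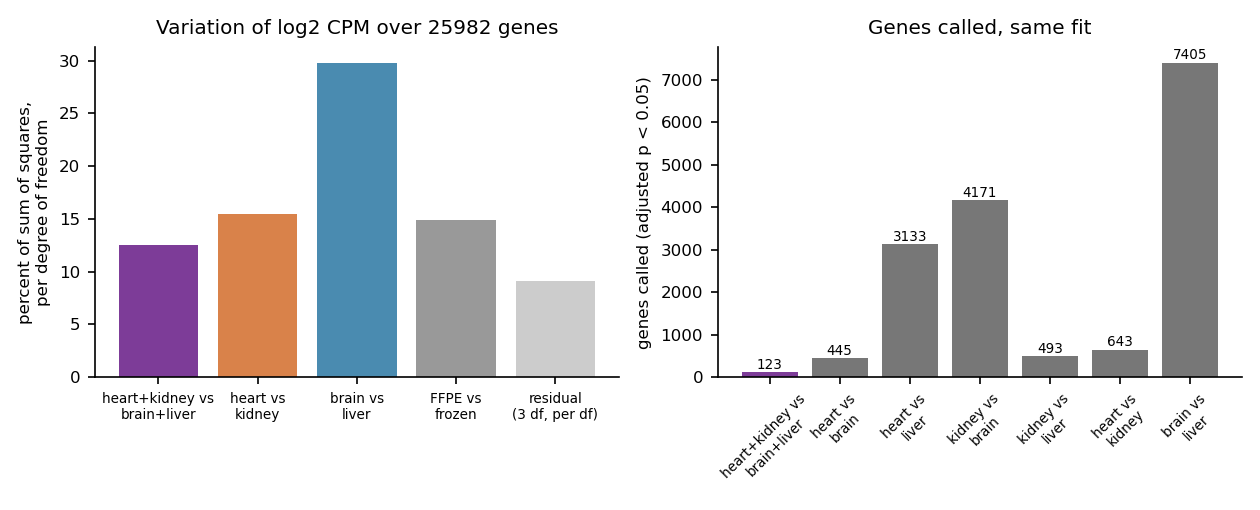
Left, share of the sum of squares of log2 CPM over all tested genes in percent per degree of freedom (df) for each term of the fit. Right, number of genes called in each comparison at adjusted p under 0.05, both directions added: the 123 of the germ-layer contrast, in purple, are fewer than in any pair of organs.

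The departures of heart and kidney from the other organs were not positively correlated. Across genes, the heart minus brain difference and the kidney minus liver difference, which share no column, had a Pearson r between -0.0186 and -0.0916 over the 4 combinations of preservation. Heart minus liver and kidney minus brain gave r between -0.217 and -0.355. These are descriptions over 25982 genes, which share the depth and composition of each column, and genes are not replicates.

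**Figure D2:**
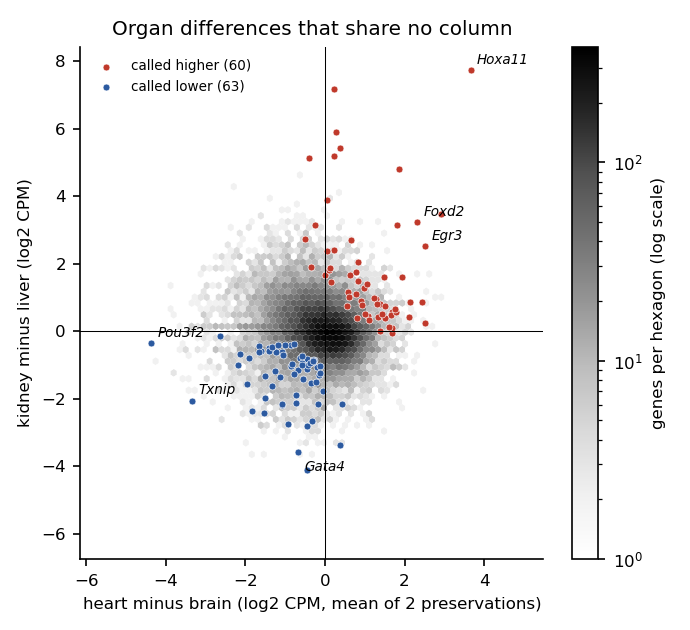
Heart minus brain (x) against kidney minus liver (y) in log2 CPM, mean of frozen and FFPE, for the tested genes (grey hexagons, log colour scale), with the genes called in the germ-layer contrast in red (higher) and blue (lower). Called genes include many close to one axis; Txnip, Foxd2 and Egr3 lie away from both.

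The error of the fit is the change of organ differences between frozen and FFPE tissue, not the spread between organs of one side. With the spread between organs in the error instead, no gene was called, the smallest adjusted p by limma was 0.78, and 988 genes had an unadjusted p under 0.05. Averaged to 4 organs, a comparison of 2 against 2 cannot reach an exact two-sided p below 0.333. The counts also moved with single columns. They were 679 higher and 1108 lower without FFPE kidney, 136 and 236 without frozen kidney, 43 and 26 without FFPE brain, 21 and 11 without frozen brain, 4 and 10 without FFPE heart, 10 and 11 without frozen heart, 16 and 8 without FFPE liver, and 20 and 17 without frozen liver. All 123 genes were called again without FFPE kidney. Only Hoxd4, Map1a and Tbx2 among the higher genes and F12, Gal3st1, Gata4, Prob1 and Txnip among the lower were called whichever column was left out.

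A stricter reading asked that every column of heart and kidney lie beyond every column of brain and liver. With no test, 536 genes (2.06%) met this in the higher direction and 348 (1.34%) in the lower. Full separation of 4 columns from 4 has an exact two-sided p of 0.0286 when columns are exchangeable. That level counts both directions, whereas each share is for 1 direction. The 2 columns of an organ are also not exchangeable with the rest, so the level is only a rough guide. Separation alone does not mark a gene. Of the called genes, 28 higher (0.108% of those tested) and 29 lower (0.112%) met it. In 46 of the 60 higher and 44 of the 63 lower genes, both the heart and kidney means lay beyond both the brain and liver means. Many called genes also differed within a side. Of the 60 higher genes, 36 differed between brain and liver, beside 28.5% of all tested genes. Liver was the lowest organ in 27 and brain in 33, and kidney was the highest in 40. Of the 63 lower genes, 37 differed between brain and liver, liver was the highest organ in 43, and heart was the lowest in 35. The contrast itself selects for brain or liver at one end and heart or kidney at the other. The counts of highest and lowest organs therefore only describe the called genes, and shares over all tested genes were not computed.

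The strictest reading asked that all 4 organ pairs (heart or kidney against brain or liver) be called in one direction. It left 3 higher genes (0.0115% of those tested), of which Egr3 and Foxd2 are described here, and 1 lower gene, Txnip (0.00385%). These counts fell to 0 and 0 without any one brain, heart or liver column and were 13 and 17 without FFPE kidney; without frozen kidney they were 4 and 3. The RefSeq sequence around the start sites of Txnip and Foxd2 (250 bases before to 50 after, GRCm38.p6, the same assembly as mm10) is shown with that of Hoxd4 and Map1a, 2 higher genes whose call held without any one column. CpG dinucleotides, where most 5mC lies, are in capitals. Txnip is shown from chr3:96557707-96558006 (plus strand), Foxd2 from chr4:114908849-114909148 (minus strand), Hoxd4 from chr2:74721728-74722027 (plus strand) and Map1a from chr2:121289352-121289651 (plus strand).
Txnip: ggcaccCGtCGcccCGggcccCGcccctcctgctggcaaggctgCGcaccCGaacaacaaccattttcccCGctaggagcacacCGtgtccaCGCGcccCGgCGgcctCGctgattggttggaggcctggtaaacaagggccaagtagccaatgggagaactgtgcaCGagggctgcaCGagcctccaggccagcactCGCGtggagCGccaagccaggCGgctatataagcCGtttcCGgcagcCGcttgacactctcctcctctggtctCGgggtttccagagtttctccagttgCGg
Foxd2: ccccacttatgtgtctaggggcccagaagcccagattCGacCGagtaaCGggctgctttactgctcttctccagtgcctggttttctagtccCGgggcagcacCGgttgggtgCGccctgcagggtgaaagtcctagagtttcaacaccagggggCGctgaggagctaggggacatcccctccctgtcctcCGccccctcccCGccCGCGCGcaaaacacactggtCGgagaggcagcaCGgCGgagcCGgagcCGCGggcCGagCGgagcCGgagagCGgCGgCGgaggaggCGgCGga
Hoxd4: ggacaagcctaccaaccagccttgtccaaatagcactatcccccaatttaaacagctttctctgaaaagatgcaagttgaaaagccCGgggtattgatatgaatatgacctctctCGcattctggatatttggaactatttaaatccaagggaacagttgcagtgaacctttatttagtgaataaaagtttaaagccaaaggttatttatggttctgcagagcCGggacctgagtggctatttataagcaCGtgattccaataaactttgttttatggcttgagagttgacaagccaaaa
Map1a: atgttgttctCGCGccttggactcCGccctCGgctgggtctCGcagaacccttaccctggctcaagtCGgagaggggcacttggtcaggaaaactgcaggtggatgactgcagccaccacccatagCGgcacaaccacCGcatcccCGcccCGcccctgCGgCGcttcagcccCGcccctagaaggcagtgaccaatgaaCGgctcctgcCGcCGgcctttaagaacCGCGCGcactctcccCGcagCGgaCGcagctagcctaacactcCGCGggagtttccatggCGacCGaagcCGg
The window of Txnip holds 24 CpG, more than in 73.5% of the 18257 tested genes with such a window. Foxd2 has 26 (more than 77.8%), Map1a 27 (more than 79.7%) and Hoxd4 only 4 (more than 24.5%). How much of the counted signal came from these windows cannot be read from a gene-level table.

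Txnip (Entrez 56338, chr3:96557957-96561857) encodes thioredoxin-interacting protein, an arrestin-fold protein that restrains glucose uptake and binds thioredoxin. Its signal was 1.88 and 2.06 log2 CPM in frozen and FFPE heart and 2.32 and 3.47 in frozen and FFPE kidney. It was 5.49 and 5.11 in frozen and FFPE brain and 4.99 and 4.91 in frozen and FFPE liver. Brain and liver lay close together and well above all 4 columns of heart and kidney, with no overlap. The difference was -2.69 ± 0.33 log2 units (SE), a 6.45-fold lower signal (limma adjusted p = 0.00156), resting on 10 to 23 reads per column in heart and kidney and 79 to 115 in brain and liver. It was -3.13 in frozen and -2.24 in FFPE tissue. With the spread between organs in the error, Txnip was the gene with the smallest adjusted p, 0.78.

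Foxd2 (Entrez 17301, chr4:114906280-114908898) encodes a forkhead transcription factor of somitic and kidney mesenchyme. Heart columns held 4.00 (frozen) and 3.86 (FFPE) log2 CPM and kidney columns 5.83 and 4.88. Brain columns held 1.20 and 2.01 and liver columns 2.27 and 1.99, all below the lowest heart column. The difference was 2.78 ± 0.39 (adjusted p = 0.00431), with 5 to 16 reads per column in brain and liver. The call was lost without either heart column, with adjusted p up to 0.0855.

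Egr3 (Entrez 13655, chr14:70077317-70082613), an immediate-early zinc finger transcription factor, was at 5.11 and 5.26 log2 CPM in frozen and FFPE heart and at 5.85 and 3.28 in frozen and FFPE kidney. Frozen and FFPE brain stood at 3.23 and 2.11, and frozen and FFPE liver at 2.78 and 1.30. The sides did not overlap, but FFPE kidney, with 20 reads, was barely above frozen brain, with 22 reads. The difference was 2.52 ± 0.40 (adjusted p = 0.00914); the call was lost without FFPE heart or FFPE liver, with adjusted p up to 0.221.

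**Figure D3:**
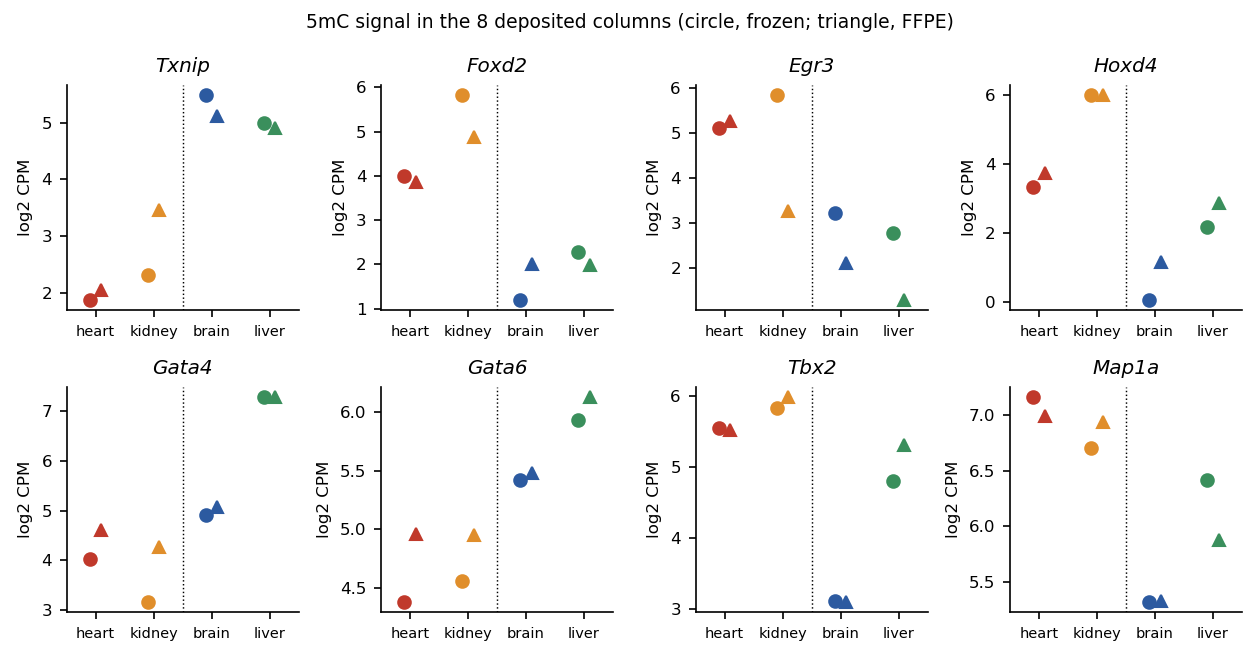
5mC signal in log2 CPM of 8 genes in each deposited column; circles are frozen and triangles FFPE tissue, the dotted line divides heart and kidney from brain and liver, and each panel has its own axis, which does not start at 0. Txnip, Foxd2 and Egr3 were called in all 4 organ pairs; Hoxd4 was highest in kidney; Gata4 and Gata6 were highest in liver, and Tbx2 and Map1a were lowest in brain.

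Beside these, 11 strongly covered higher genes were named because they ranked highest by the smallest of their 4 organ differences and had all heart and kidney columns above brain and liver. Mafg, a small Maf partner of NRF2, was 1.45 ± 0.19 higher (adjusted p = 0.00294), with heart at 5.59 and 5.81, kidney at 5.53 and 5.95, brain at 4.45 and 5.30 and liver at 3.41 and 3.94 log2 CPM. Its FFPE brain column came close to the heart and kidney columns, while liver lay far below. Map1a (chr2:121289590-121310832), a microtubule-associated protein of neurons, was 1.21 ± 0.15 higher (adjusted p = 0.00156). Heart held 7.16 and 6.99 log2 CPM, kidney 6.70 and 6.94, brain 5.32 and 5.33, and liver 6.42 and 5.88, so brain stood lowest and frozen liver came close to frozen kidney. Zfp354c, a zinc finger repressor gene, was 1.06 ± 0.16 higher (adjusted p = 0.00591), with 6.27 to 6.60 in heart and kidney and 4.96 to 5.59 in brain and liver. Scarf2, a scavenger receptor family member, was 1.77 higher; its FFPE kidney column (5.04) was near FFPE liver (4.84). Rab36, a Rab GTPase, was 1.27 higher, Raver1, a ribonucleoprotein that works with PTBP1 in splicing, 1.14, and Sowaha, an ankyrin-repeat gene, 1.13, each with adjusted p between 0.0255 and 0.0299. The other 4 are gamma protocadherins, described with their cluster. Of the genes in this paragraph outside that cluster, only Map1a was called whichever column was left out.

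The lower genes shared by both organs on this reading included 2 developmental receptors and several membrane proteins. Fzd4, a Wnt and norrin receptor, was -1.41 ± 0.22 (adjusted p = 0.00742): heart 4.03 and 4.63, kidney 3.79 and 3.75, brain 5.79 and 5.89, and liver 5.20 and 4.97 log2 CPM. Brain and liver were both above every heart and kidney column, and 3 of 4 pairs were called. Aplnr, the apelin receptor that acts in heart development, was -1.09 ± 0.19 (adjusted p = 0.0192), with 3.97 to 5.06 in heart and kidney and 5.39 to 5.85 in brain and liver. Adra1a, an alpha-1 adrenergic receptor, was at -1.43 ± 0.22 (adjusted p = 0.00742), and its liver columns, 6.10 and 6.52, were far above brain, 5.22 and 4.82. Folr1, a folate receptor of kidney tubule, was at -1.31 ± 0.24 (adjusted p = 0.0228). The keratin gene Krt75 (-0.88), the endocytic ATPase Ehd4 (-0.91), the winged-helix gene Stox1 (-0.99), the TFIID subunit gene Taf4b (-0.89), Phldb3 (-1.25) and D7Ertd143e (-1.63) completed the group with Gata4 and Gata6. In Ehd4, frozen kidney (4.57) stood apart from the other 3 columns of its side (5.40 to 5.43). Each of the genes from Fzd4 to D7Ertd143e lost its call without at least 3 of the 8 columns, frozen heart among them, with adjusted p up to 0.341.

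The medians of the mesoderm and endoderm regulator lists were close to that of all genes, while single members were called in each list. Of 67 tested regulators of mesoderm and its heart and kidney derivatives, 4 were higher (Hoxa11, Irx5, Osr2 and Tbx2) and 2 lower (Gata4 and Gata6), beside 0.231% and 0.242% of all tested genes. Of the 4, Hoxa11 passed the filter only through heart and kidney columns, the side where it is high. The list median was 0.07, against -0.01 over all tested genes. Of 57 ectoderm regulators, Pou3f2 was lower and none higher, and the median was -0.44. Of 33 endoderm regulators, Sox9 was lower and none higher, with a median of 0.02. The negative ectoderm median lay on the side of brain: it was -0.94 for heart minus brain and -1.49 for kidney minus brain. Against liver it was 0.64 for heart and 0.19 for kidney. This profile was not particular to ectoderm regulators. The weakly covered olfactory receptor genes had medians of -0.62 and -1.32 against brain and 0.82 and 0.19 against liver, in the same order. The count of higher mesoderm regulators ran from 1 without either heart column to 7 without FFPE kidney, and that of lower ones from 1 to 6. Over all tested genes, higher calls were 4 and 10 without FFPE and frozen heart and 679 without FFPE kidney. With at least 1 CPM in all 8 columns, 44 of the list were tested and 2 were higher, beside 139 of all 21095 genes then tested.

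Gata4 (Entrez 14463, chr14:63198914-63271712), a zinc finger factor needed for heart and liver development, had the smallest adjusted p of all genes, 0.000506. Its log2 CPM were 4.03 and 4.61 in heart and 3.16 and 4.26 in kidney. Brain held 4.92 and 5.08, and liver 7.28 in both preservations. Liver therefore carried most of the difference of -2.13 ± 0.21, although brain also lay above every heart and kidney column. Heart minus brain was -0.68 (adjusted p = 0.237) and kidney minus brain -1.29 (adjusted p = 0.00962). Gata6 (chr18:11052510-11085636), a close paralogue, was likewise highest in liver and next in brain, at a smaller scale: heart had 4.38 and 4.96, kidney 4.56 and 4.95, brain 5.42 and 5.48, and liver 5.93 and 6.13. Its difference was -1.03 ± 0.18 (adjusted p = 0.0171), and the call was lost without frozen brain or any heart or liver column (adjusted p up to 0.175).

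Tbx2 (Entrez 21385, chr11:85832615-85841948), a T-box repressor of chamber and kidney development, was the reverse case, set by brain. Heart held 5.55 and 5.52 log2 CPM, kidney 5.83 and 5.99, brain 3.10 and 3.09, and liver 4.80 and 5.31. The difference was 1.65 ± 0.20 (adjusted p = 0.00156), but heart minus liver was 0.48 (adjusted p = 0.298) and kidney minus liver 0.86 (adjusted p = 0.121). Osr2, an odd-skipped factor of intermediate mesoderm, was higher by 3.33 ± 0.60 (adjusted p = 0.0228), with kidney at 4.73 and 4.84, heart at 2.13 and 2.06, and brain and liver between -0.45 and 0.91. Irx5, an Iroquois factor of heart and kidney patterning, was higher by 3.09 ± 0.58 (adjusted p = 0.0268), but brain (2.87 and 2.61) overlapped heart (2.35 and 3.69), and liver was near the floor with 2 and 0 reads. Pou3f2, a neural POU factor, was at -2.37 ± 0.38 (adjusted p = 0.011): brain stood at 6.35 and 6.02, whereas liver, 3.82 and 2.12, overlapped heart and kidney, 1.75 to 3.39. Sox9, a factor of several germ layers, was at -1.13 ± 0.21 (adjusted p = 0.0243), and it was heart (4.06 and 4.21) that stood low, since kidney held 7.05 and 5.76 and liver 6.92 and 7.10.

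Other regulators of heart and kidney missed the threshold. Nkx2-5, a cardiac homeobox gene, differed by 1.25 ± 1.01 (adjusted p = 0.607), Tbx5 by 0.17 ± 0.14 (0.601), Tbx20 by -0.54 ± 0.17 (0.177), Pax2, a kidney and neural paired-box gene, by 0.92 ± 0.23 (0.0926), Wt1 by 0.48 ± 0.22 (0.339) and Tbx3 by 0.97 ± 0.22 (0.0754). The wide error of Nkx2-5 shows that a difference of its size was not detectable here. Sox2, a neural progenitor factor, was at -1.92 ± 0.61 (adjusted p = 0.169), with all heart and kidney columns below brain and liver.

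Hox genes, which pattern the body axis in clusters of neighbouring homeobox genes, were the group with the largest median differences among the lists examined, and kidney carried them. Of 41 tested genes of the 4 clusters, 7 were called higher and 0 lower, beside 0.231% and 0.242% of all tested genes, with a median difference of 1.42. Among the 7, Hoxa11 and Hoxa11os passed the filter only with heart and kidney columns, the side where they are high. Their calls are therefore not separate support, and the count of 7 includes them. The clusters gave 12 tested genes at Hoxa, 9 at Hoxb, 10 at Hoxc and 10 at Hoxd. The kidney minus brain difference was called higher in 23 and kidney minus liver in 14, beside 9.65% and 0.754% of all tested genes. Heart minus brain was called higher in 2 and heart minus liver in 1, beside 1.19% and 3.29%. Heart was called below kidney in 16 genes and above it in 0, beside 2.13% and 0.343%. Median signals in the Hoxa cluster were 5.02 log2 CPM in kidney, 1.68 in heart, 1.19 in brain and 1.15 in liver. In Hoxc they were 4.53, 0.89, 2.04 and 0.46, and in Hoxd 4.5, 1.46, 1.23 and 0.84. In Hoxb, kidney at 3.96 was followed by liver at 2.59, with heart at 1.67. Heart thus lay near brain or liver and far from kidney in each cluster. The sum of squares in Hox genes split into 33% for the germ-layer contrast and 38.4% for heart against kidney.

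Hoxd4 (Entrez 15436, chr2:74721978-74729160) and Hoxa11 were called Hox genes in which heart also stood above brain and liver. For Hoxd4, heart held 3.32 and 3.73 log2 CPM, kidney 6 and 5.99, brain 0.06 and 1.16, and liver 2.18 and 2.88. All heart columns exceeded all liver columns, although heart minus liver, 1, was not called (adjusted p = 0.261), and heart minus brain, 2.92, was (adjusted p = 0.0165). The contrast was 3.19 ± 0.38 (adjusted p = 0.00156). Hoxa11 (chr6:52242105-52245810) had 102 and 84 reads in frozen and FFPE kidney, 5 and 6 in heart, and 0 in each brain and liver column. Against a floor of 3 reads per column, the mean of heart and kidney, 18.7 CPM, was at least 18-fold higher than brain and liver. The mean was 35.3 CPM in kidney and 2.07 CPM in heart. Hoxa11 passed the filter only through the heart and kidney columns, the side where it is high. Its adjusted p of 0.004 is therefore not separate support for the difference. The call was lost without either heart column (adjusted p up to 0.0855).

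All but 1 of the other called Hox genes stood high in kidney alone, with heart at or near the level of brain or liver. Hoxd3 (chr2:74711993-74748271) held 7.40 and 6.94 log2 CPM in kidney and 1.06 to 2.53 in the other 6 columns; its annotated span covers that of Hoxd4, so the counting could divide shared reads between them. Hoxd12 held 6.43 and 5.5 in kidney against 0.06 to 1.5 elsewhere. Hoxa2 held 6.63 and 5.84 against 1.31 to 3.4. Hoxa11os, an antisense transcript whose span overlaps Hoxa11, held 5.85 and 5.68 against -2.40 to 1.13. Among its brain and liver columns only frozen brain, at 0.91, reached 1 CPM, so it passed the filter only with heart and kidney columns. Hoxb3 was instead low in brain alone (2.38 and 3.14), with liver at 5.36 and 5.48 above heart at 4.82 and 4.96. No Hoxc gene was called in the germ-layer contrast, although 5 of the 10 were higher in kidney than brain and 4 higher than liver. Without the kidney columns, 0 Hoxa, 0 Hoxb and 1 Hoxd gene were called higher, beside 373 of all 25982 tested genes. At that share, clusters of this size would hold few or no calls.

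**Figure D4:**
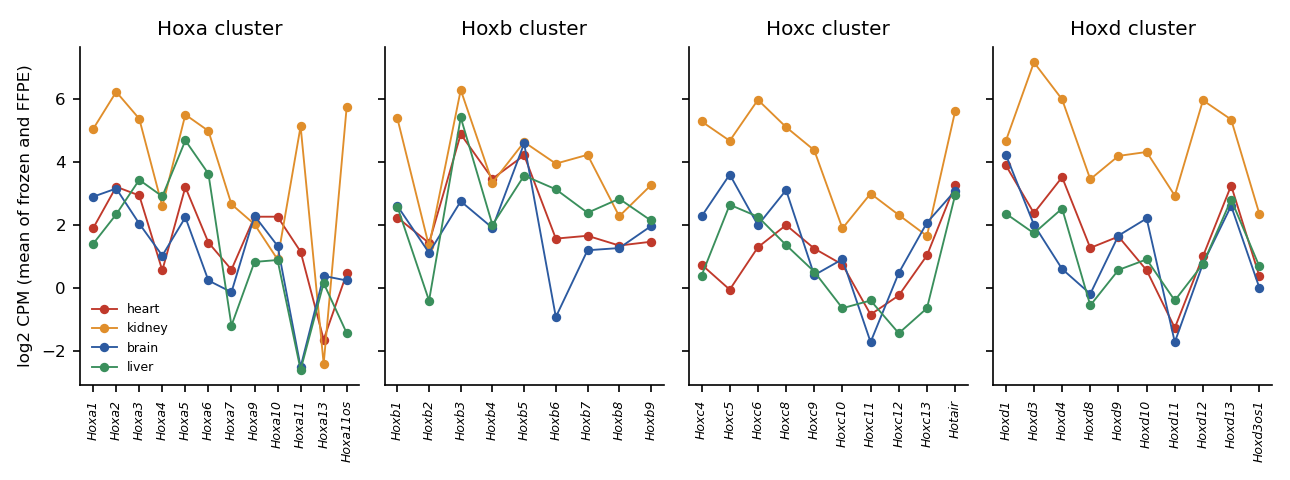
Mean log2 CPM of frozen and FFPE tissue for each tested gene of the 4 Hox clusters in heart, kidney, brain and liver; lines only join the points of an organ. Kidney (orange) is the highest organ across most of Hoxa, Hoxc and Hoxd, with heart (red) mixed among brain and liver.

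The clustered protocadherins, cell-surface cadherins best known for giving neurons individual identities, were the other family with several calls. Of 58 tested, 6 were higher and 0 lower, beside 0.231% and 0.242% of all tested genes. All 6 were gamma genes on chromosome 18: Pcdhga9, Pcdhga10, Pcdhga12, Pcdhgb6, Pcdhgc4 and Pcdhgc5. Among the 22 gamma genes the median difference was 0.56, and 8 (36.4%) had all heart and kidney columns above brain and liver, against 2.06% of all tested genes. The 14 alpha genes had a median of -0.09 and the 22 beta genes of 0.17, with 0 called and 0 with columns apart in either family. Pcdhgc5 (chr18:37819546-37841873) had heart at 5.76 and 5.52 log2 CPM, kidney at 5.67 and 5.16, brain at 4.51 and 4.02, and liver at 4.71 and 4.49, a difference of 1.09 ± 0.19 (adjusted p = 0.0168). Pcdhga9 was 1.12 ± 0.21 higher and Pcdhgb6 0.94 ± 0.18, from 5.54 to 6.35 and from 6.41 to 7.39 in heart and kidney. The annotated spans of the 6 genes overlap and end within a few bases of each other (37841863 to 37841873), and gamma transcripts are known to share constant last exons. How the counting treated reads there is not known, so the 6 calls may not be separate measurements. The count of called protocadherins was 0 without frozen brain, frozen liver or either heart column, 1 without FFPE liver, 2 without FFPE brain and 13 without FFPE kidney. Higher calls over all tested genes moved alike, so this is no trait of the family. They were 21 without frozen brain, 20 without frozen liver, and 4 and 10 without FFPE and frozen heart. Without FFPE liver they were 16, without FFPE brain 43 and without FFPE kidney 679.

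Genes that mark the cell types of the 4 organs were mostly not called. The same holds for genes in general, with 0.231% of all tested genes called higher and 0.242% lower. At that share, lists of this size would hold few or no calls, so their lack does not set markers apart. Of 44 cardiomyocyte genes, Xirp1, an actin-binding protein of the intercalated disc, was lower (-0.58 ± 0.12, adjusted p = 0.0453) and none higher. Among the 45 nephron genes and the 46 neuron genes none was called, and the list medians were -0.10 and 0.12. Of 31 astrocyte and oligodendrocyte genes, Gal3st1 and Sox9 were lower. Among 24 endothelial genes, Klf2 was lower. None of 32 fibroblast and smooth muscle genes, 32 leukocyte and microglia genes or 15 erythroid genes was called. Individual markers missed the threshold: Myh6, the cardiac myosin heavy chain, was at -0.33 ± 0.11 (adjusted p = 0.211), Nphs1, nephrin of the podocyte, at -0.55 ± 0.13 (0.083), Alb, albumin, at 0.64 ± 0.27 (0.297), and Rbfox3, the neuronal NeuN gene, at 0.48 ± 0.14 (0.138). These are DNA signals, so they do not show which cells a sample held, and the part of cell mixture in any difference was not tested.

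Hepatocyte genes were the cell-type list with the most calls, and liver set them. Of 56 tested, 3 were higher in heart and kidney (Apof, Cyp8b1 and Fga) and 1 lower (F12), beside 0.231% and 0.242% of all tested genes. The list median was 0.32. The median was 1.05 for heart minus liver and 0.95 for kidney minus liver, but -0.30 and -0.28 against brain. Fga, the fibrinogen alpha chain, held between 5.86 and 6.51 log2 CPM in heart, kidney and brain, with only liver low at 4.42 and 4.49. Apof, an apolipoprotein, and Cyp8b1, a bile acid hydroxylase, had the same shape, with liver at 3.41 and 3.03 and at 4.26 in both preservations. F12 (coagulation factor XII) ran the other way: liver stood at 6.52 and 6.88, brain at 4.4 and 4.51, and heart and kidney between 3.62 and 4.33, a difference of -1.62 ± 0.21 (adjusted p = 0.00221). Without any one heart or brain column, or without FFPE liver, none of these 3 higher genes was called.

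Several of the largest remaining differences likewise came from 1 organ. Gal3st1, a sulfotransferase of sulfatide synthesis in myelin and kidney, was at -2.09 ± 0.22 (adjusted p = 0.000568): liver held 7.21 and 7.46 log2 CPM, kidney (4.76 and 5.19) overlapped brain (5.28 and 4.69), and heart lay lowest at 3.51 and 2.80. Klf2, a flow-responsive endothelial factor, was at -1.59 ± 0.22 (adjusted p = 0.00348), with heart alone low at 2.92 and 2.71. Fut11, a fucosyltransferase, and Urad, an enzyme of uric acid breakdown, were both at -1.49 and high in liver alone, at 6.97 and 7.51 and at 6.12 and 6.65. In the higher direction, Fam172a (1.45) was low in liver alone, at 2.72 and 3.87 against 5.45 to 6.64 elsewhere. Fam171a2 (1.38) was low in brain alone, at 3.57 and 3.63 against 5.88 to 6.88. Lrrc4, a synaptic adhesion gene, was 1.26 higher, with brain at 4.4 and 3.37 and liver, at 5.51 and 5.28, just below heart and kidney.

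The other gene families listed gave no calls. With 0.231% of all tested genes called higher and 0.242% lower, all of these lists but the largest, the olfactory receptors, would hold few or none at that share. None of 363 zinc finger genes passed the test, though 14 (3.86%) had all heart and kidney columns above brain and liver and 0 below, against 2.06% and 1.34% of all tested genes. The zinc finger median was 0.05. Of 1104 olfactory receptor genes, which were weakly covered, none was called, and their median of -0.24 joined a heart minus brain median of -0.62 with a heart minus liver median of 0.82. No gene was called among 45 imprinted genes, 25 genes of the methylation machinery, 48 germline genes, 41 fatty acid oxidation genes, 56 genes of BMP, TGF-beta and activin signalling, 24 of retinoic acid signalling or 81 ribosomal protein genes, with list medians between -0.17 and 0.21.

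**Figure D5:**
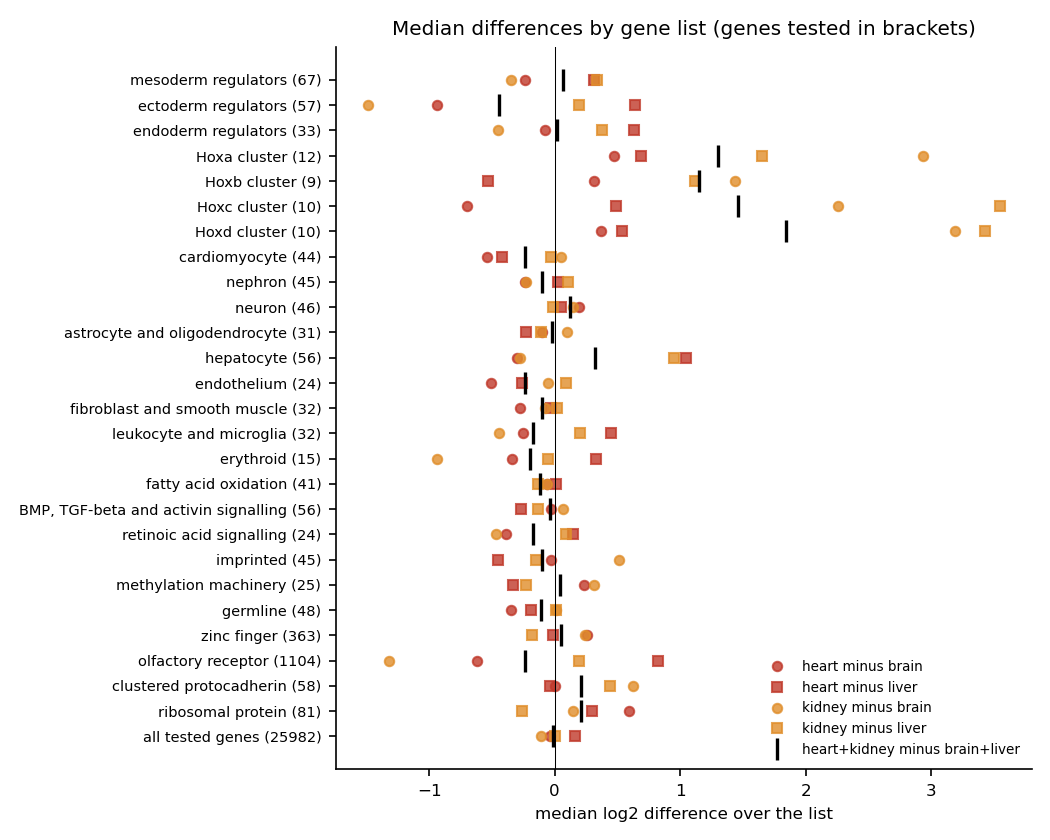
Median log2 difference over each gene list (number of tested genes in brackets) for the 4 organ pairs and, as black ticks, for heart and kidney minus brain and liver. In the Hox clusters the kidney medians (orange) lie to the right of the heart medians (red, between -0.70 and 0.69), whereas the hepatocyte list is split by partner, with squares (minus liver) near 1 and circles (minus brain) below 0.

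The germ-layer difference was also compared between frozen and FFPE tissue. No gene was called for a change of the difference with preservation (0% of those tested, limma with 2 residual degrees of freedom, smallest adjusted p = 1), and 894 genes had an unadjusted p under 0.05. The count was 239 without FFPE heart and 243 without frozen heart, 17 and 18 without FFPE and frozen brain, and 1 without either liver column. The strongly covered genes with the smallest p were Tbxa2r, the thromboxane receptor, whose difference was 1.44 in frozen and 0.14 in FFPE tissue, and Gtdc1, a glycosyltransferase-like gene, with -1.21 and 0.81. For Gtdc1 the frozen kidney column (2.64) lay far below FFPE kidney (5.12). Krtap28-13 (0.88 and -0.64), BB123696 (-0.38 and -1.74), Slfn2 (-1.15 and 0.74) and Tinagl1 (-1.08 and 0.16) were the others.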

How the data were processed

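The deposited table gives log2 CPM, made by the authors from read counts on genes; the submitters' processing notes name Bowtie2, featureCounts, limma and the mm10 build, without versions or settings. The values have 0.5 added to each count, found by stepping all of them back to whole reads. The size each column was scaled to was 0.851 (FFPE liver) to 1.1 (FFPE brain) times its reads in the table, so the scaling was not by these totals alone. Columns were mapped to organ and preservation by name and read as the 5mC samples. R 4.3.3 with limma 3.58.1 was used (lmFit with organ and preservation, eBayes with a variance trend, Benjamini-Hochberg over all tested genes, threshold 0.05; 3 residual and 13.1 prior degrees of freedom). The fit was tested on simulated data. Fold changes are on this log2 scale, which understates changes of low genes. Coordinates are from RefSeq GRCm38.p6, matched by Entrez ID for 25275 genes (93.0%); 1275 rows have no symbol. Figures were drawn in Python 3.11.15 with matplotlib 3.10.9.

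The genes named are, first, up to 12 per direction at or above the median signal of 4.21 log2 CPM with columns apart, ranked by their smallest organ-pair difference. To these were added the 5 largest others per direction, up to 4 called genes of each of 26 lists, genes called in all 4 pairs, and 3 per direction for the preservation term. Predicted models were left out. Osr2, Irx5, Prob1, uncalled genes and the genes of the closing paragraphs were named outside this rule, after their values were seen. The members and lists were chosen with earlier results of these data known. Alternatives covered scaling, filters, the added count, variance trend, weights, error terms, preservation, and leaving out columns or organs. Each value is 1 column, so p-values measure only how organ differences vary between preservations. Intervals for counting error were not computed, so values that rest on few reads are less certain than their digits show. Of the genes called in all 4 organ pairs, 1 is not reported here.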

Additional observations from a re-analysis of the deposited data

Results flagged for a closer look

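Within each side of 4 columns, 120 sets of values were checked for a column far from the other 3, and 7 were found. The sets came only from called genes selected for naming. Some of these, Hsd3b7, Lamb1 and Tm4sf1 among them, were picked after their values were seen. The limit used passes about 1 in 20 sets of 4 values drawn alike, so 7 is no clear excess. That rate also does not strictly apply, because each side mixes 2 organs and 2 preservations and because the genes were selected. Of the 7 found, 4 were in frozen kidney, the column with the most genes at 0 reads. Frozen kidney was low for Lamb1, a laminin chain of basement membrane, at 6.01 log2 CPM against 6.65 to 6.74 in the other heart and kidney columns. It was also low for the endocytic ATPase gene Ehd4, at 4.57 against 5.40 to 5.43, and for Tm4sf1, a tetraspanin-like endothelial gene, at 1.92 against 3.16 to 3.28. For Pou3f2 it was high, at 3.39 against 1.75 to 1.88. Frozen liver was low for Hoxa2, at 1.31 against 3.04 to 3.38 in the other brain and liver columns. Hsd3b7, a bile acid synthesis enzyme, was high in FFPE heart, at 4.79 against 4.39 to 4.46, and in FFPE brain, at 3.41 against 2.78 to 2.87. What sets these columns apart was not tested.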

How the results depend on the processing

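Counts are given as higher and lower genes in heart and kidney, where the reported fit has 60 and 63. They were 159 and 122 with quantile normalization (58 and 60 of the reported genes kept), 40 and 39 without a filter, 139 and 122 with at least 1 CPM in all 8 columns, 99 and 97 with log2(CPM + 1), 129 and 120 with array quality weights, and 16 and 17 without preservation in the fit. Voom weights on the recovered reads, an alternative chosen after seeing the data, gave 146 and 133. Centring the columns gave 55 and 74. Counts were 0 and 0 by limma without a variance trend (2786 genes at unadjusted p under 0.05), with organ spread in the residual (988), with organ as a random block (215), with 4 organ means (189), in frozen columns only (269) and in FFPE columns only (316). Leaving out 1 column gave 4 to 679 higher and 8 to 1108 lower genes. Without an organ they were 598 and 1671 (brain), 57 and 26 (heart), 373 and 938 (kidney), and 1476 and 903 (liver). The share of calls that were higher, 48.8%, moved by over 10 points in several of these, from 26.4% without brain to 68.7% without heart.

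Genes called in all 4 organ pairs, 3 higher and 1 lower, became 1 and 2 with quantile normalization or centring, 1 and 0 without a filter, 4 and 2 with at least 1 CPM in all columns, log2(CPM + 1) or voom weights, 4 and 4 with array weights, and 0 and 0 without a variance trend or without preservation. Leaving out 1 column gave 0 to 13 and 0 to 17. Preservation-dependent genes stayed at 0 in the scaling and filter alternatives and ran from 0 to 243 when 1 column was left out.

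Of the called genes named, the difference turned in 4: Fam171a2 to -0.01 without brain, Fga to -0.21 and Fut11 to 0.48 without liver, and Sox9 to 0.01 without heart. Over all alternatives for these genes, 839 values kept their call and 713 kept only the direction. The cause of these changes was not tested. No paired analysis was possible because the columns carry no replicate number that could serve as a block; frozen and FFPE columns are matched across organs only through the preservation term of the reported fit. Low signal limits genes such as Txnip and Foxd2, with fewer than 25 reads in some columns.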

Other observations

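Several genes of lipid metabolism and insulin signalling, picked after their values were seen, were among those higher in heart and kidney. Hsd3b7 was 1.55 ± 0.30 higher (limma adjusted p = 0.0315), with all heart and kidney columns above all brain and liver columns. Fasn, fatty acid synthase, was 0.59 ± 0.12 higher (adjusted p = 0.0327) and Irs2, an insulin receptor substrate, 1.18 ± 0.22 (adjusted p = 0.0255), both with brain lowest. Liver overlapped kidney in both. For Fasn, FFPE liver held 7.81 log2 CPM and frozen kidney 7.77. For Irs2, FFPE liver held 5.71 and FFPE kidney 5.57. Neither gene was called for heart or kidney against liver. Sqle, squalene epoxidase, at 0.73 ± 0.18 (adjusted p = 0.0839), and Srebf2, the sterol-responsive transcription factor gene, at 0.60 ± 0.15 (adjusted p = 0.0844), missed the threshold. Scap, which escorts that factor, differed by 0.04 ± 0.13 (adjusted p = 0.929). Hsd3b7 and Fasn each lost the call without any one brain, heart or liver column, and Irs2 without any one of 5 columns.

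Other genes named after their values were seen include Foxl1, a forkhead factor of mesenchyme, with 1.68 ± 0.27 (adjusted p = 0.0105) and liver lowest at 2.65 and 2.35 log2 CPM. Ush1g, a scaffold protein of hair cells, was at -1.98 ± 0.29 (adjusted p = 0.00536), with brain and liver between 4.88 and 5.28 and heart and kidney between 2.17 and 4.2. The genes called higher had a median annotated length of 12.7 kb and those called lower of 16.8 kb, beside 15.4 kb for all tested genes with a length. On chromosome 11 lay 10 of the 60 higher genes (16.7%) and 4 of the 63 lower genes (6.35%), beside 6.75% of all tested genes.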
